A study of Citrus sinensis and Citrus x aurantiifolia and Citrus x latifolia with 53 samples.

Results

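The genes described here are 44 citrus genes whose transcripts fell in leaves after 9 days without irrigation while their measured change in roots stayed small. They were taken from the 24533 genes of the leaf and root count tables. Levels are CPM, the count of a gene divided by the total of its library and scaled to a common total. In each combination of scion and rootstock the mean CPM under water deficit (WD) was divided by that of irrigated controls (Ctrl), with 1 added to both, and put on the log2 scale. A gene was kept where the mean of these log2 ratios over the 4 combinations was at most -1.5 in leaves and between -0.5 and 0.5 in roots, and where its control mean was under 400 CPM in both tissues. At most 150 genes were to be kept, and 44 met the conditions. The leaf and root changes chose the genes, so they are described below and not tested.

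Trees were grafted limes. The scions were Mexican lime (ML, diploid) and Persian lime (PL, triploid), and each stood on a diploid (2x) or tetraploid (4x) Swingle citrumelo 4475, a hybrid of Citrus sinensis and Poncirus trifoliata. The 4 combinations are written ML2x, ML4x, PL2x and PL4x. All trees were held for 2 years in 40 L pots before irrigation was stopped for the WD trees and continued for the Ctrl trees, and leaves and roots were collected at the end. The question behind the design was whether extra chromosome sets in the rootstock or in the scion help such a tree to withstand lack of water. RNA-seq counts were available for 26 leaf and 27 root libraries. Each Ctrl group had 3 and each WD group 4, except PL2x, with 2 Ctrl and 3 WD leaf libraries and 3 WD root libraries. Leaf RNA is of the scion's genotype and root RNA of the rootstock's, so tissue and genotype cannot be told apart.

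A tree that loses its water supply closes its stomata, which saves water and also limits the entry of carbon dioxide. Leaves then commonly lower transcripts for growth, cell wall building and photosynthesis and raise those for protection and for abscisic acid signalling, while roots meet the drying soil first and have their own response. The files give identifiers of the clementine kind (Ciclev) and no gene products, and 0 of the 24533 matched the reference table at hand, which is of sweet orange. The genes are therefore given by identifier with no role, and neither pathway lists nor markers of leaf or root cells could be measured. In whole organs, fewer cells of a type and less RNA per cell cannot be told apart.

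The leaf libraries held between 3747153 and 54838385 counts, and the root libraries between 1118899 and 27925992. Over these genes the leaf libraries PL2x WD 1, ML4x WD 1 and PL4x WD 2 stood closer to their controls than the rest of their WD groups. Some values are also given with 1 of them left out, or without PL2x WD 1 and ML4x WD 1. No setting left out PL4x WD 2 together with these. The lowest totals were those of PL2x Ctrl 1 and ML2x WD 3 in leaves and ML2x WD 4 in roots.

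The 44 genes were a small part of the leaf transcriptome and lost most of their share under water deficit. In the 11 Ctrl leaf libraries they took between 0.142% and 0.303% of all counts, with a median of 0.181%. In the 15 WD leaf libraries they took between 0.0196% and 0.173%, with a median of 0.0343%. The share was 0.162 ± 0.0146% in ML2x Ctrl (SD, n = 3) and 0.0300 ± 0.0115% in ML2x WD (SD, n = 4). In ML4x it was 0.163 ± 0.0195% (n = 3) and 0.0615 ± 0.0309% (n = 4). These means show the larger loss on the diploid rootstock for Mexican lime. In PL2x the share was 0.225 ± 0.0129% in Ctrl (n = 2) and 0.103 ± 0.0696% in WD (n = 3), and in PL4x 0.233 ± 0.0609% (n = 3) and 0.0420 ± 0.0376% (n = 4). For Persian lime the order of the rootstocks was the opposite one.

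**Figure D1:**
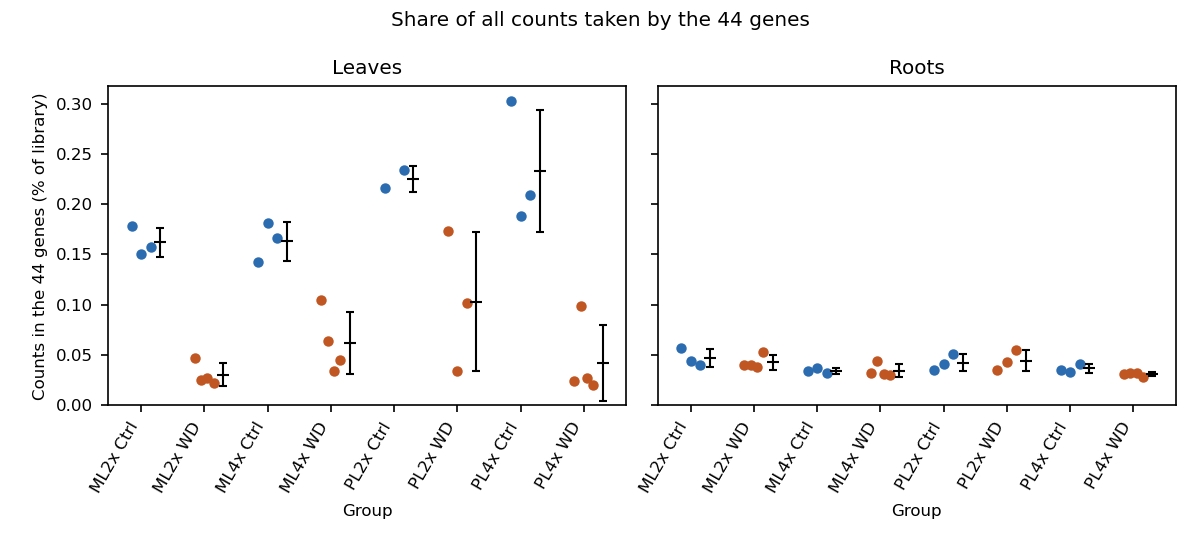
Share of all counts of a library taken by the 44 genes, in percent (vertical axis), for each group of leaf and root libraries. Points are libraries (blue Ctrl, orange WD) and bars show mean ± SD; WD leaf libraries lie below the Ctrl leaf libraries of their combination, with PL2x WD 1 at 0.173% closest to its controls, while root libraries lie between 0.0277% and 0.0564% in both treatments.

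In roots the share of the 44 genes was 0.0316% to 0.0564% in the 12 Ctrl libraries and 0.0277% to 0.0551% in the 15 WD libraries, so the treatments overlapped. Most of this came from a single gene, Ciclev10002925m.g, which supplied 55.9% of the summed control level of the 44 genes in roots.

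Within the module, the mean log2 ratio in leaves ran from -2.56 to -1.51 with a median of -1.74. The gene just inside the leaf threshold stood at -1.51293 and the one just outside at -1.49996. In roots the ratio ran from -0.47 to 0.39, and the nearest genes outside the root bounds stood at -0.65 and 0.53. By edgeR's fit, which scales libraries by TMM and adds no such constant, the mean leaf response of the 44 had a median of -2.44 on the log2 scale, from -3.92 to -1.76. All 44 were called lower at an adjusted p under 0.05, where 20.3% of all genes tested were called lower, a count that the choice of the genes had fixed. The median over all 19140 genes tested in leaves was 0.09 by edgeR and 0.25 on the scale of the rule, so the falls stand against a median slightly above 0.

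The depth of the fall differed between combinations. The WD mean was a median of 10.8% of the Ctrl mean in ML2x, with genes from 0.919% to 41.5%. It was 14.3% in PL4x (1.83% to 42.0%), 29.8% in ML4x (9.56% to 111%) and 40.0% in PL2x (15.7% to 107%). All 44 genes stood under 50% of control in ML2x and in PL4x, against 37 in ML4x and 32 in PL2x. Under 25% stood 38 in ML2x and 40 in PL4x, and 17 in ML4x and 6 in PL2x. Single libraries moved these medians. Without PL4x WD 2 the PL4x median was 3.64%, without PL2x WD 1 the PL2x median was 25.2%, without ML4x WD 1 the ML4x median was 21.3%, and without ML2x WD 1 the ML2x median was 6.68%. The lowest of the 4 log2 ratios belonged to PL4x in 23 genes, to ML2x in 20 and to ML4x in 1. On that scale 26 genes reached -1 or lower in all 4 combinations, 13 in 3 and 5 in 2.

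Only 2 of the 44 genes failed to stand below control in some combination, and both were picked out after their values were seen. Ciclev10012726m.g had a log2 ratio of 0.14 in ML4x, against -2.59 in ML2x, -1.53 in PL2x and -2.25 in PL4x. In ML4x leaves it measured 16.35, 10.3 and 15.7 CPM in Ctrl and 50.6, 3.63, 4.32 and 4.31 CPM in WD. Its ratio there rested on ML4x WD 1, and edgeR gave 0.05. Ciclev10027402m.g had 0.07 in PL2x, against -3.22 in ML2x, -2.27 in ML4x and -1.44 in PL4x. In PL2x leaves it measured 0.534 and 3.16 CPM in Ctrl and 3.31, 0.2665 and 2.37 CPM in WD. The lower control, PL2x Ctrl 1, held 2 counts of this gene, and edgeR gave -0.19 in PL2x.

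**Figure D2:**
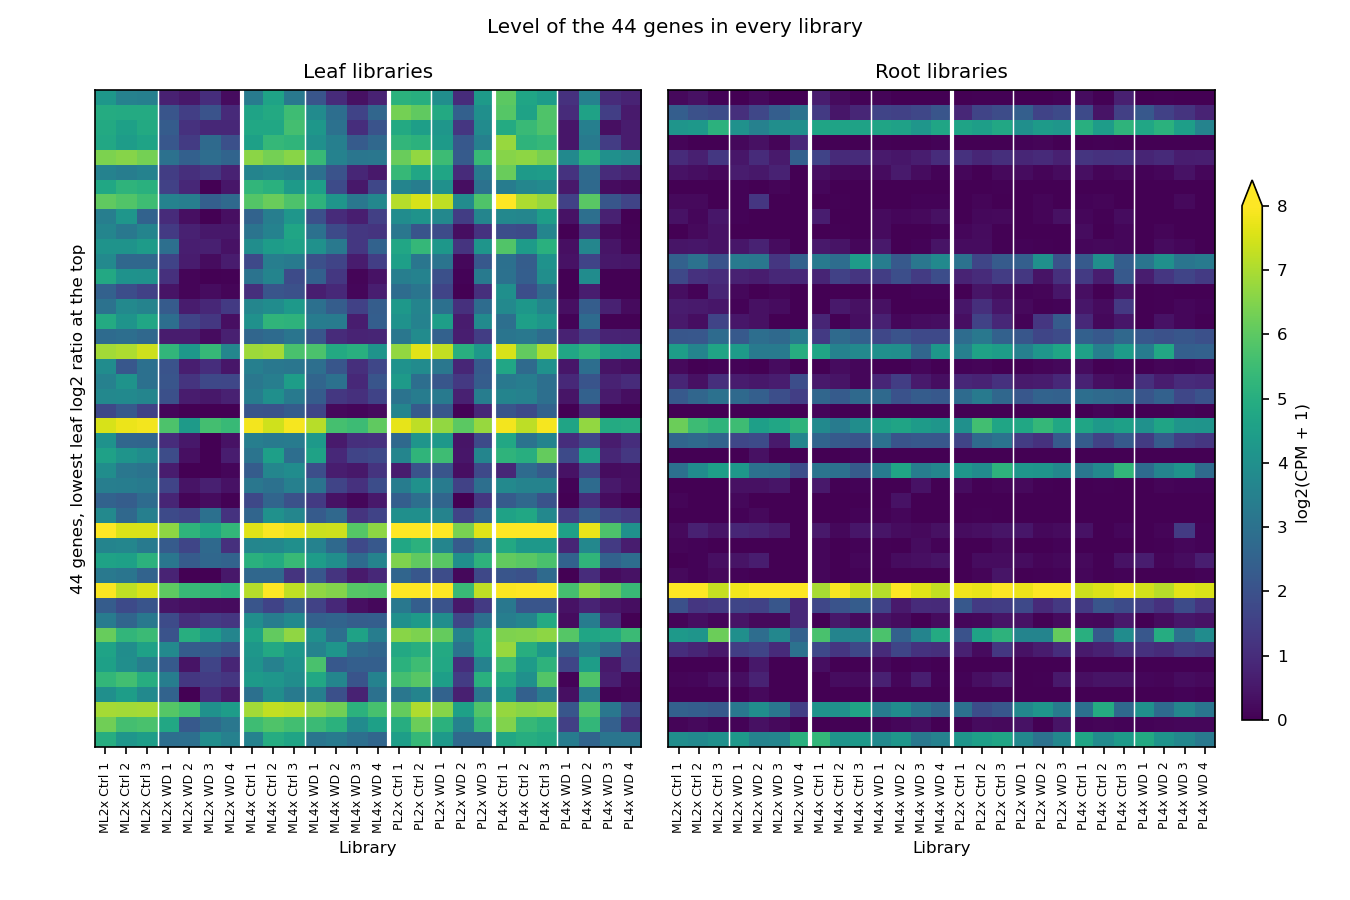
Level of each of the 44 genes as log2(CPM + 1) (colour scale) in every leaf library (left) and root library (right), with genes ordered by their mean leaf log2 ratio, lowest at the top. Thick lines part the combinations and thin lines part Ctrl from WD; WD leaf columns are darker than Ctrl columns, except that PL2x WD 1, ML4x WD 1 and PL4x WD 2 stay closer to Ctrl, and most rows are dark in all root libraries.

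The 2 genes with the lowest leaf ratio among those with at least 5 CPM in control leaves show this pattern. Ciclev10010525m.g measured 17.7, 10.6 and 10.0 CPM in the ML2x Ctrl leaves and 0.679, 0.426, 1.04 and 0.212 CPM in the ML2x WD leaves. In ML4x it measured 9.01, 23.7 and 8.33 CPM in Ctrl and 3.27, 0.969, 0.274 and 0.718 CPM in WD. The treatments did not overlap in either combination with Mexican lime. In PL2x it measured 33.6 and 31.6 CPM in Ctrl and 14.6, 1.02 and 19.7 CPM in WD. In PL4x the Ctrl leaves had 62.7, 24.8 and 20.4 CPM and the WD leaves 1.22, 10.7, 0.998 and 0.741 CPM. Again no WD leaf reached a Ctrl leaf of its combination, but PL2x WD 1 and WD 3 and PL4x WD 2 stayed far above the other WD trees. Over all leaves the level was 23.0 ± 15.9 CPM in Ctrl (SD, n = 11) and 3.77 ± 6.10 CPM in WD (n = 15). The root level was 0.188 ± 0.213 CPM in Ctrl (n = 12) and 0.0214 ± 0.0423 CPM in WD (n = 15), so this gene also had a lower mean in WD roots, and at that level the root bounds of the rule could not register it.

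Ciclev10023143m.g measured 29.1, 28.7 and 28.8 CPM in ML2x Ctrl leaves and 3.35, 1.79, 3.13 and 0.921 CPM in ML2x WD leaves. In ML4x the values were 24.0, 28.1 and 44.9 CPM in Ctrl and 13.4, 6.46, 2.04 and 5.25 CPM in WD. Each WD leaf was below each Ctrl leaf in both. In PL2x the values were 80.1 and 64.8 CPM in Ctrl and 27.7, 4.53 and 14.7 CPM in WD. In PL4x they were 59.0, 23.6 and 54.9 CPM in Ctrl and 0.966, 23.4, 1.79 and 0.480 CPM in WD. The PL4x groups came within a small margin of each other through PL4x WD 2 alone. In roots this gene had 1.92 ± 1.19 CPM in Ctrl (n = 12) and 2.71 ± 1.62 CPM in WD (n = 15), the highest log2 ratio in roots among the 44.

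**Figure D3:**
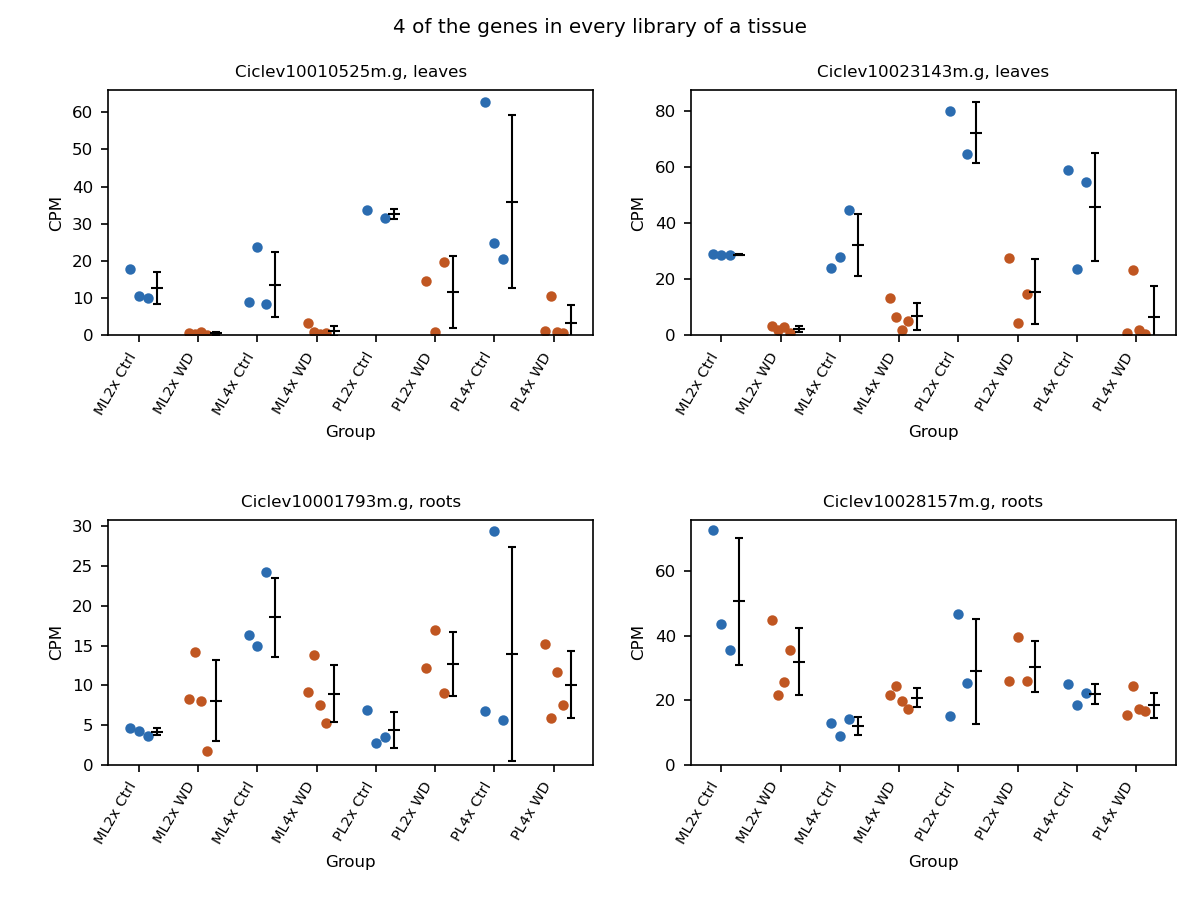
CPM of 4 of the genes in every library of a tissue, with Ciclev10010525m.g and Ciclev10023143m.g in leaves (top) and Ciclev10001793m.g and Ciclev10028157m.g in roots (bottom). Points are libraries (blue Ctrl, orange WD) and bars show mean ± SD; in leaves WD points lie below the Ctrl points of their combination, and in ML2x and ML4x roots the Ctrl points of the 2 rootstocks do not overlap.

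Trees of a WD group differed among themselves, and they did so in step over these genes. The highest WD value of a gene was found in PL4x WD 2 for 42 of the 44 genes, where the same library was highest for 63.4% of the 3847 other genes that fell in leaves. ML2x WD 1 was highest of its group for 36 genes (42.6% of the other fallen genes), ML4x WD 1 for 36 (39.4%) and PL2x WD 1 for 36 (66.8%). The summed share of counts followed the same libraries, with 0.0983% in PL4x WD 2 against 0.0196% to 0.0267% in the other PL4x WD leaves, and 0.173% in PL2x WD 1 against 0.0343% and 0.101% in PL2x WD 2 and WD 3. What these trees have in common was not tested. The SD of log2(CPM + 1) among trees of a group had a median of 0.52 over the 44 genes in Ctrl and 0.96 in WD, against 0.31 and 0.40 over all genes tested. It was larger under WD for 40 of the 44 genes, and for 69.8% of all genes tested.

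A gene's WD leaves all lay below its Ctrl leaves for 43 of the 44 genes in ML2x. In ML4x and in PL2x this held for 31 genes each, and in PL4x for 37. Over all genes tested the shares were 12.1% (ML2x), 6.48% (ML4x), 11.9% (PL2x) and 7.32% (PL4x), and here too the choice of the genes used these libraries. The libraries that broke the separation were few. ML4x WD 1 was below all its controls for 32 genes, PL2x WD 1 for 31, PL4x WD 2 for 37 and PL2x WD 3 for 39, and each other WD leaf library for 43 or 44.

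To measure the leaf response in libraries that had no part in the choice, the rule was applied again with each combination left out of both tissues, and the genes it then chose were tested in leaves of the combination left out. In ML2x, 34 genes were chosen from the other combinations, 25 of them among the 44. Of these 34, 23 were called lower in ML2x by edgeR's quasi-likelihood test with Benjamini-Hochberg adjustment over all genes, where 5.35% of all genes tested were called lower. Their median log2 fold change was -3.13, against 0.07 for all genes, and 34 of 34 were below 0. In PL4x, 32 genes were chosen, 30 of them among the 44, and 26 were called lower, where the background was 12.3%. Their median was -3.27 against 0.12, with 31 of 32 below 0. Most genes chosen elsewhere were thus called lower in PL4x leaves and, with all libraries kept, in ML2x leaves. The chosen genes share these libraries, so the number called is not repeated evidence. With 1 tree left out the PL4x count stayed between 21 and 30, where 6.82% to 19.6% of all genes were called lower. Without PL4x WD 2 the PL4x median was -5.73. But the ML2x count came to 2, 6 and 4 without Ctrl 1, 2 or 3 and to 6, 12 and 5 without WD 2, 3 or 4. In these ML2x settings 0.141% to 2.06% of all genes were called lower.

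In the remaining pair of combinations the chosen genes lay below 0 but did not pass the test. In ML4x, 59 genes were chosen and 0 were called by edgeR, where 0.256% of all genes were called lower. An unadjusted p under 0.05 was found for 28 of the 59, and for 19.1% of all genes in either direction. By DESeq2 8 of the 59 were called (13.6%, against 1.79% of all genes), and by limma's voom, which weights libraries by quality, 56 (94.9%, against 16.8%). The median was -1.54 against 0.05 for all genes, and 58 of 59 were below 0. In PL2x, 70 were chosen and 0 called by edgeR, where 0.0% of all genes were called lower. Only 9 of the 70 had an unadjusted p under 0.05, against 23.5% of all genes in either direction. DESeq2 called 2 of the 70 (2.86%, against 2.36% of all genes lower) and voom 20 (28.6%, against 9.15%). The median was -1.16 against 0.06, with 67 of 70 below 0. Without ML4x WD 1 edgeR called 8 in ML4x (13.6%, against 1.23% of all genes lower), with a median of -2.08. Without PL2x WD 1 it called 4 in PL2x (5.71%, against 3.35%), with a median of -1.81, and without PL2x WD 2 the median was -0.73.

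**Figure D4:**
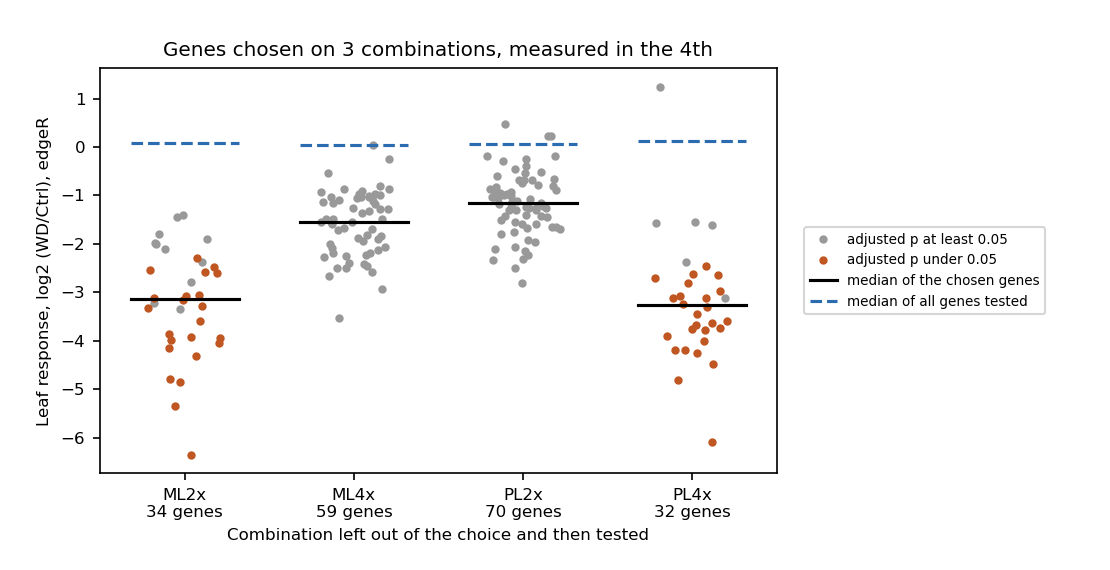
Log2 fold change of WD against Ctrl in leaves by edgeR (vertical axis) of genes chosen on 3 combinations and measured in the one left out (horizontal axis). Points are genes, orange where the adjusted p was under 0.05, black lines their median and dashed lines the median of all genes tested; medians of the chosen genes were -3.13, -1.54, -1.16 and -3.27 from left to right.

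In roots of the combination left out, the chosen genes kept a small response about as often as other genes did. Among chosen genes with at least 1 CPM in its irrigated roots, 4 of 12 stayed within 0.5 on the log2 scale in ML2x and 9 of 16 in ML4x. In PL2x 13 of 21 did, and in PL4x 9 of 12. Among all genes with at least 1 CPM the shares were 45.3%, 62.7%, 64.8% and 59.8%. In ML2x roots the other 8 of the 12 stood below -0.5. The shares lie on both sides of those of all genes, and no test was made of these counts.

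The differences of the leaf response between combinations were tested directly, since the rule averages over them. Under Mexican lime the response of the 44 genes was a median of 1.39 log2 units less negative on the tetraploid rootstock, with 41 of 44 differences above 0, from -0.66 to 3.85. Under Persian lime it was a median of 1.90 more negative on the tetraploid rootstock, with 43 of 44 differences below 0. By edgeR 0 of 44 passed in either scion, and 0.0% of all genes tested passed. An unadjusted p under 0.05 was found for 3 and 4 of the 44, and for 3.25% and 10.3% of all genes. The median standard errors were 1.29 and 1.40 log2 units, about as large as the differences. The medians depended on single trees. Under Mexican lime the median was 0.58 without ML4x WD 1 and 2.07 without ML2x WD 1. Under Persian lime it was -1.11 without PL2x WD 1 and -3.88 without PL4x WD 2. Calls under Persian lime depended on the tool too, because voom called 31 of the 44 lower (70.5%, against 13.6% of all genes), and without PL4x WD 2 edgeR called 19 lower (43.2%, against 5.54%). DESeq2 called 0 in both scions. Between scions, with rootstocks averaged, the median difference was 0.18, with a median standard error of 0.95. By edgeR 0 of 44 passed, where 0.00522% of all genes were called, and 0 passed by DESeq2 and by voom. Only 1 of the 44 had an unadjusted p under 0.05 by edgeR, against 14.5% of all genes. The sign of the median difference between scions depended on 1 library, at -0.82 without PL4x WD 2, -0.30 without PL2x WD 1 and 0.54 without ML4x WD 1. Without PL4x WD 2 edgeR called 0 of the 44, where 0.335% of all genes were called. Each of these genes shares its libraries with the other 43, so the common sign over the genes is not repeated evidence.

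In irrigated leaves the 44 genes had means from 4.01 to 314 CPM, with a median of 21.3. CPM is not per length, so these levels do not rank the genes. Under 5 CPM stood 5 genes, 30 had 5 to 50 CPM and 9 had at least 50 CPM. Persian lime leaves had a higher mean than Mexican lime leaves for 33 of 44 genes, with a median log2 difference of 0.70 and a median standard error of 0.70. By edgeR 0 passed, where 12.4% of all genes were called in either direction. An unadjusted p under 0.05 was found for 6 of the 44, and for 29.9% of all genes. DESeq2 called 2 (4.55%), all higher in Persian lime, against 18.2% of all genes in either direction and 8.87% higher. For voom these were 9 (20.5%), all higher, against 19.9% and 9.99%. Reads of the 2 limes counted on gene models of another citrus species can differ by mapping as well as by level, and the part of this was not tested. Between rootstocks, irrigated leaves had a median difference of 0.12 (4x minus 2x), from -0.86 to 0.74. It was -0.03 by voom and -0.11 without PL4x Ctrl 1. Of the 44 genes 0 passed by edgeR, by DESeq2 or by voom, and edgeR called 0.0% of all genes. By edgeR 0 of the 44 reached an unadjusted p under 0.05, against 2.05% of all genes.

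Most of these genes had a low level in roots. In irrigated trees the leaf level exceeded the root level for 43 of the 44 genes by edgeR, where 35.8% of the 21126 genes tested were higher in leaves, and the median log2 difference was 6.78 against -0.22 for all genes. Control levels enter the rule, which bounds them and needs a leaf level high enough to fall, so this comparison is not independent of it. The difference was above 4 log2 units for 31 genes. Of the 85 genes that met the same leaf threshold but fell below the root bound, 59 were higher in leaves and 14 higher in roots, with a median difference of 1.95. Of the 11 that rose above the root bound, 9 were higher in leaves. Mean root levels under 1 CPM were found for 27 of the 44 genes (61.4%), 2 of the 85 and 3 of the 11, and for 10.7% of all genes tested in leaves. The rule fixes much of this, because with 1 added to both means a gene at 0.414 CPM or less in irrigated roots cannot fall below the root bound. Such genes can enter the 44 and never the 85, and 24 of the 44 were of this kind.

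Ciclev10033025m.g and Ciclev10012680m.g had the largest differences between tissues. Ciclev10033025m.g measured 105 ± 65.4 CPM in Ctrl leaves (SD, n = 11) and 0.0464 ± 0.0576 CPM in Ctrl roots (n = 12), where it had 11 counts in 6 of the 12 libraries. Its log2 difference was 11.63 ± 0.32 (SE, edgeR), given as a description because control levels enter the rule. In leaves it fell to 25.9 ± 39.0 CPM under WD (n = 15), with 1.93, 3.41 and 2.09 CPM in PL4x WD 1, 3 and 4 but 60.6 CPM in PL4x WD 2 and 150.2 CPM in PL2x WD 1. The last value lay within its PL2x controls, at 138 and 180.2 CPM. Ciclev10012680m.g measured 24.7 ± 17.7 CPM in Ctrl leaves, and 1 count was found over the 12 Ctrl root libraries together, so no fold is given. Its leaf level was 7.74 ± 12.8 CPM under WD, with 23.5 CPM in ML4x WD 1 and 44.3 CPM in PL2x WD 1, both above all their controls.

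The exception was Ciclev10027402m.g, picked out after its values were seen. It measured 6.69 ± 4.84 CPM in Ctrl leaves (n = 11) and 15.4 ± 11.0 CPM in Ctrl roots (n = 12), a log2 difference of -0.72 ± 0.33 that missed the threshold (SE, edgeR adjusted p = 0.055). With DESeq2's size factors in edgeR, and with DESeq2, 1 of the 44 genes was called lower in leaves.

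**Figure D5:**
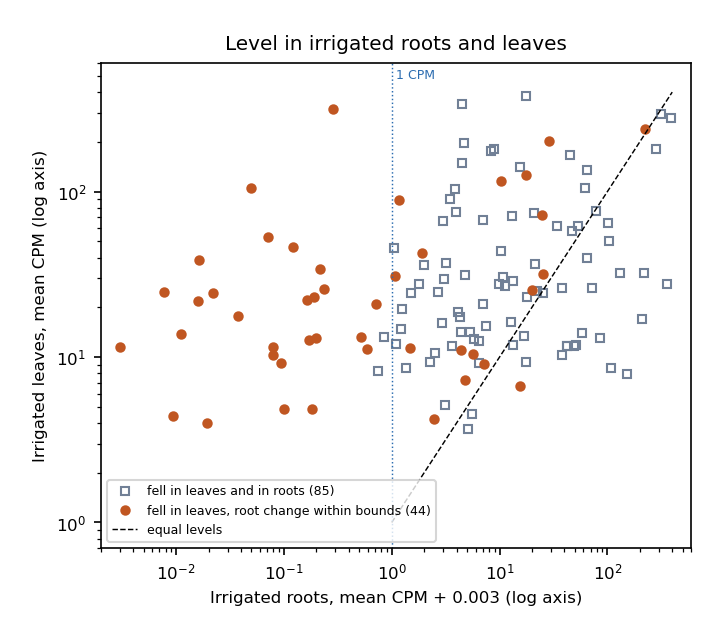
Mean level in irrigated leaves (vertical axis, CPM) against that in irrigated roots (horizontal axis, CPM with a small constant added), both log axes, for the 44 genes (filled) and the 85 genes that fell in both tissues (open squares). The dashed line marks equal levels and the dotted line 1 CPM in roots; 27 of the 44 filled points and 2 of the 85 squares lie left of the dotted line.

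The low root levels limit what a small root change can mean here. The 24 genes at or under 0.414 CPM would have met the lower bound even if lost altogether. Of the 26 genes that stayed within 0.5 in all 4 root combinations, 25 had a root control mean under 1 CPM and 1 had more. All 44 had at least 1 count somewhere in roots, and 23 had enough counts to be tested there. The label of repression in leaves only is therefore not carried by the root data of these 24 genes.

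The 17 genes with a root control mean of at least 1 CPM ran from 1.08 to 223 CPM there. Their WD mean in roots was a median of 80.8% of control, from 66.9% to 151%, and in leaves 24.1%, values that the rule itself bounded. These means pool the combinations, and single combinations went further. Of the 44 genes, 3 had a root log2 ratio of at least 1 in a combination and 1 of at most -1. Named after their values were seen, they were Ciclev10001793m.g (1.35 in PL2x), Ciclev10031308m.g (1.18 in ML2x), Ciclev10027402m.g (1.065 in ML4x) and Ciclev10032962m.g (-1.85 in ML2x). Among the 17 was Ciclev10002925m.g, with 241 ± 76.5 CPM in Ctrl leaves (n = 11) and 223 ± 71.8 CPM in Ctrl roots (n = 12). Under WD it had 83.7 ± 74.0 CPM in leaves and 229.8 ± 69.9 CPM in roots (n = 15 each). In leaves it measured 246, 148 and 187 CPM in ML2x Ctrl and 64.2, 40.8, 37.8 and 34.3 CPM in ML2x WD, and the roots of the same combination measured 376, 285 and 158 CPM in Ctrl and 225, 278, 266 and 353 CPM in WD. The leaf groups were apart and the root groups overlapped. In PL2x leaves the gene measured 289 and 305 CPM in Ctrl and 326, 41.5 and 149 CPM in WD, so that PL2x WD 1 was above both controls.

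Ciclev10028157m.g had the second highest root level of the 44, with 203 ± 36.2 CPM in Ctrl leaves and 61.4 ± 36.1 CPM in WD leaves, and 28.5 ± 18.5 CPM in Ctrl roots and 25.1 ± 8.65 CPM in WD roots (SD, n = 11, 15, 12 and 15). In irrigated roots its level depended on the rootstock, with 17.1 ± 6.05 CPM over 6 libraries of the tetraploid and 39.9 ± 20.0 CPM over 6 of the diploid, a log2 difference of -1.20 ± 0.24 (SE, edgeR adjusted p = 0.0053). The ML2x roots had 72.9, 43.7 and 35.6 CPM and the ML4x roots 12.9, 9.11 and 14.2 CPM, which do not overlap. The PL2x roots had 15.1, 46.9 and 25.3 CPM and the PL4x roots 25.1, 18.6 and 22.3 CPM, which do.

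Ciclev10001793m.g went the other way between rootstocks, with 16.2 ± 9.40 CPM over the same 6 libraries of the tetraploid and 4.28 ± 1.44 CPM over the 6 of the diploid, a log2 difference of 1.98 ± 0.42 (SE, edgeR adjusted p = 0.0083). The ML2x roots had 4.59, 4.28 and 3.69 CPM and the ML4x roots 16.3, 15.0 and 24.3 CPM, and the PL2x roots had 6.91, 2.75 and 3.47 CPM and the PL4x roots 6.77, 29.4 and 5.60 CPM. Under Persian lime PL4x Ctrl 2 lay far above the other PL4x libraries, and the groups overlapped. These 2 genes were the ones called among the 23 tested in roots for this comparison, where 3.05% of all genes were called in either direction. Both were called by DESeq2 too.

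Under WD, Ciclev10001793m.g measured 8.25, 14.2, 8.05 and 1.79 CPM in ML2x roots and 12.1, 16.9 and 9.01 CPM in PL2x roots, and 9.22, 13.8, 7.60 and 5.25 CPM in ML4x roots. In PL4x roots under WD it measured 15.2, 5.91, 11.7 and 7.56 CPM. Its mean was thus above control on the diploid rootstock and below it on the tetraploid. The small mean change that admitted it to the 44 averages these. In PL4x the control mean was raised by PL4x Ctrl 2, at 29.4 CPM against 6.77 and 5.60 CPM, and the Persian lime difference given next includes that library. The difference of the root response between rootstocks was -2.16 ± 0.77 under Mexican lime (SE, edgeR adjusted p = 0.25) and -2.06 ± 0.78 under Persian lime (edgeR adjusted p = 1.0), which did not pass. Of the 23 genes 0 passed for either difference, and 0 passed for the difference between scions. An unadjusted p under 0.05 was found for 7 under Mexican and 1 under Persian lime, and for 14.3% and 3.19% of all genes. Between scions it was found for 0 of the 23 and for 3.23% of all genes. In all 3 comparisons DESeq2 and voom called 0 genes, and edgeR called 0.0% of all genes.

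The mean root response of the 23 genes was used by the rule and is given as a description. By edgeR 3 were lower and 0 higher, where 30.7% of all genes were lower. They are named here after their values were seen. Ciclev10008549m.g had 0.517 CPM in irrigated roots and a log2 response of -2.35, a loss that the added 1 kept within the bound. Ciclev10014832m.g, at 5.68 CPM, had -0.48, and Ciclev10026139m.g, at 25.2 CPM, had -0.35.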

How the data were processed

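RNA-seq counts of 26 leaf and 27 root libraries of grafted limes were used; within a group they come from separate trees. The authors deposited raw read counts per gene as whole numbers, not normalised. The submitters' processing notes name Trimmomatic, a read trimmer, and HTSeq, a read counter, without versions. For the aligner, genome build and strand setting: not given in the sources used here. The kit was a stranded mRNA kit, per the labels' protocols. Where gene copies are nearly identical, reads can be lost or split between them. Libraries of PL2x that the design names beyond those listed were not analysed here.

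The 44 genes, the named genes and all comparisons were chosen with earlier results of these data known. CPM by column totals, with 1 added, gave the members. Tests used edgeR 4.0.16 (R 4.3.3; filterByExpr, TMM, robust quasi-likelihood F test) with 8 groups per tissue, and the irrigated libraries of both tissues for leaf against root; a call is a Benjamini-Hochberg adjusted p under 0.05 over all genes tested, 19140 in leaves and 20452 in roots. Standard errors are of the fitted log2 fold change. Alternatives were DESeq2 1.42.0, its size factors, limma 3.58.1 voom with quality weights, no filter on low counts, a replicate block, and libraries left out. With no gene products, at most 2 genes per direction and comparison were named: the lowest leaf ratios at 5 CPM or more in control leaves, the highest root levels, and the called genes with the largest differences; others are marked in the text. Of 64 pairs of libraries within groups, the smallest mean chi-square per gene was 15.7, so none was a copy. On simulated leaf counts 74% of genes with a log2 change of -1 and 100% with -3 were recovered in the mean leaf response (18791 genes), and 83% and 98% in the mean root response (20246 genes). Biological coefficients of variation were 0.38 in leaves and 0.371 in roots.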

Additional observations from a re-analysis of the deposited data

Results flagged for a closer look

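In groups of 4 libraries the share of counts in the 44 genes and the CPM of the named genes were screened for a library far from the other 3. Of 27 groups 8 had one. The cutoff gives about 1 in 20 for normally distributed values, which CPM and shares need not be, so that rate is only a guide. Only WD groups had 4 libraries, so no Ctrl group was screened. In PL4x WD leaves it was WD 2 each time, with a share of 0.0983%, and with 10.7 CPM of Ciclev10010525m.g, 23.4 CPM of Ciclev10023143m.g, 60.6 CPM of Ciclev10033025m.g and 22.6 CPM of Ciclev10012680m.g. These values share 1 library and are not independent. Ciclev10012680m.g also stood apart in ML4x WD 1, at 23.5 CPM. In roots the share was high in ML2x WD 4, at 0.0528%, the library with the fewest counts, and in ML4x WD 2, at 0.0437%. The causes were not tested.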

How the results depend on the processing

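Under settings other than leaving out each library in turn, 134 values stayed within 1.5 times the count given, or on the same side of the threshold. The other 14 did not, and 0 called named genes changed direction. Among these settings, the one without the libraries of fewest counts dropped a single library in roots and in leaves against roots. The median over the 44 genes for rootstocks in irrigated leaves was -0.03 by voom against 0.12. For the choice of genes, TMM-scaled CPM gave 69 genes (44 shared), an added constant of 5 gave 19 (12 shared) and one of 0.5 gave 60 (42 shared). Without PL2x WD 1 and ML4x WD 1 in leaves, a setting chosen after seeing the data, 71 genes were chosen (44 shared). Leaving out 1 library gave 34 to 67, the highest without PL4x WD 2. Among genes chosen without a combination, calls in ML2x were 10 with a replicate block, where 1.76% of all genes were called lower. They were 2 to 27 with 1 library left out, where 0.141% to 7.77% of all genes were. Without the libraries of fewest counts the median of the chosen genes in ML2x was -3.03. In ML4x the calls were 8 by DESeq2 (1.79% of all genes lower), 56 by voom (16.8%) and 14 without PL2x WD 1 and ML4x WD 1 (2.4%). With 1 library left out they were 0 to 8 (0.0% to 1.23%). In PL2x they were 2 (2.36%), 20 (9.15%) and 8 (3.24%) in the same order, and 0 to 4 with 1 WD library left out (0.0% to 3.35%). Where a PL2x Ctrl leaf is left out, the lone control is assumed to vary like the other groups. In PL4x the calls were 21 to 30 with 1 library left out (6.82% to 19.6%). The response between rootstocks under Persian lime gave 31 calls by voom and 0 to 19 with 1 library left out. Irrigated Persian against Mexican lime leaves gave 2 calls by DESeq2 and 9 by voom. The causes were not tested. Irrigated leaves against roots gave 43 to 44 calls with 1 library left out. Same-numbered Ctrl and WD libraries correlated above 0.1 in 1 of 11 leaf and 6 of 12 root pairs, and leaf and root libraries in 9 of 21, so the numbers were not taken to pair trees; with the replicate block the mean leaf response had 43 calls and leaf against root, with PL2x left out, 42. Low levels limit the tests in roots most, where the 44 genes had a median control level of 0.221 CPM. There 21 of them had too few counts to test.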
